A study of Mus musculus with 10 samples.

Results

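Replication-dependent histone genes are described here in nascent RNA of mouse embryonic stem cells (ESCs) in which Xist was switched on over 24 h. Members were the genes whose symbol starts with Hist1h, Hist2h, Hist3h or Hist4h and whose mean total count over the 10 samples was 10 or more. Of 24386 genes, 60 carried such a name and 56 passed the limit. Just above it were Hist1h2aa with a mean of 11 and Hist2h2ab with 19.5 counts, and just below it Hist1h4m with 8.5 and Hist1h1t with 3.7 counts. Hist1 on chromosome 13 held 48 members, Hist2 on chromosome 3 held 6, and Hist3 on chromosome 11 and Hist4 on chromosome 6 held 1 each (Hist3h2a and Hist4h4). By name, 5 members were genes of the linker histone H1, 15 of H2A, 15 of H2B, 10 of H3 and 11 of H4. GENCODE M21 lists 55 of them as protein coding and the H2A member Hist1h2al (chr13:51200084-51203066), which lies far from the rest of Hist1, as a processed pseudogene.

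The study followed transcription during X chromosome inactivation by transient transcriptome sequencing (TT-seq), in which RNA made during a short pulse of the uridine analogue 4-thiouridine (4sU) is purified and sequenced. All samples were TX1072 cells of WT genotype, a female hybrid ESC line with 1 set of chromosomes from C57BL/6 (B6) and 1 from Mus musculus castaneus (Cast), in which a doxycycline (DOX) inducible promoter drives the endogenous Xist gene on the B6 X chromosome. Cells were grown with serum, LIF and 2i, received DOX at 1 µg/ml 24 h after plating, and were labelled with 0.5 mM 4sU for 5 min at 0, 4, 8, 12 or 24 h of DOX, with 2 replicates per time. All groups come from 1 line, time in culture rises with time in DOX, and no DOX-treated sample lacked induced Xist, so the effects of the drug, of Xist and of time in culture cannot be told apart.

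Replication-dependent histone genes supply the core histones H2A, H2B, H3 and H4, which wrap DNA into nucleosomes, and the H1 linker histones, which bind DNA between them. They are short, mostly intronless and clustered, and are transcribed mainly in S phase from histone locus bodies organised by Npat and Casp8ap2 (FLASH). Their mRNAs end in a stem-loop bound by Slbp instead of a poly(A) tail, and the end is made by a cut that the U7 snRNP with Lsm10 and Lsm11 directs. Because TT-seq does not select for poly(A), such transcripts are retained.

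The stem-loop was found in most member transcripts and is shown because it defines the class. In the GENCODE M21 transcripts (GRCm38), 38 members had at least 60 bases after the stop codon. In 34 of them (89.5%) a perfect hairpin with a 6-base stem opening with GG and a 4-base loop opening with TT began within 100 bases of the stop codon, at 21 to 54 bases (median 31). Of 20656 other coding genes with as much sequence, 10 had such a hairpin (0.0484%). The 34 hairpins took 6 forms, of which 1 was shared by 19 members. Below, 4 of the forms are printed with the 16-base hairpin in capitals and 5 flanking bases on each side. They lie at chr13:23571838-23571863 (+ strand), chr13:23561898-23561923 (- strand), chr13:22040961-22040986 (- strand) and chr13:21735432-21735457 (+ strand), each in the only exon of its gene.
Hist1h2bg: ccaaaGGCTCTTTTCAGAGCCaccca
Hist1h3e: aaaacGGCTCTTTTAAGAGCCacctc
Hist1h4i: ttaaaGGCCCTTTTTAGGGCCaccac
Hist1h4j: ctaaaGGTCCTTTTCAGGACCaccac

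Promoters differed between the types. RefSeq promoters (GRCm38.p6, 250 bases before to 50 bases after the start) were at hand for 50 of 56 members and each motif was read on both strands. H2A and H2B members that lie head to head, with starts 177 to 305 bp apart, have overlapping windows. A motif in the overlap counts for both genes, so these H2A and H2B promoters are not independent. CCAAT was present in 5 of 5 H1, 14 of 14 H2A, 13 of 13 H2B and 8 of 8 H3 promoters, in 3 of 10 H4 promoters and in 37.3% of 32800 other promoters. GGTCCG, the core of an H4 promoter element, was present in 9 of 10 H4 promoters, 1 H2B and 1 H3 promoter and 8.23% of other promoters. AAACACA, the H1 box, was present in 4 of 5 H1 promoters, 2 H2A and 2 H2B promoters and 7.17% of other promoters. TTTGCAT, an octamer core that binds POU factors, was present in 7 of 14 H2A and 6 of 13 H2B promoters, 1 of 10 H4 promoters, none of the H1 and H3 promoters and 4.59% of other promoters. TATAAA was present in 31 of 50 member promoters (62%) and in 13.5% of the others. The promoter of the member with the highest level per kilobase in each type is printed with these runs in capitals, whichever strand they are on.
Hist1h1a, chr13:23763418-23763717, + strand: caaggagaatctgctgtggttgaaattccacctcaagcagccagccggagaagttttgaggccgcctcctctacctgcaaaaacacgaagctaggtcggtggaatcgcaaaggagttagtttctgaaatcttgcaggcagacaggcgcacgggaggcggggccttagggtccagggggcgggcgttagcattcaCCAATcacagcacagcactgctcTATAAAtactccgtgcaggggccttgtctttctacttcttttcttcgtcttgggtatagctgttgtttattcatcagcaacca
Hist1h2ab, chr13:23750838-23751137, + strand: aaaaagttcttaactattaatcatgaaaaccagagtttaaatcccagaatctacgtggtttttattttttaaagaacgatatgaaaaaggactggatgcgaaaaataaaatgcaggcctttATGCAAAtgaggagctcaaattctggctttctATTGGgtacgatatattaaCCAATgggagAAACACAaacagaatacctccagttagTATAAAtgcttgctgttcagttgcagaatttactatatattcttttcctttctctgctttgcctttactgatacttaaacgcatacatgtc
Hist1h2bg, chr13:23571150-23571449, + strand: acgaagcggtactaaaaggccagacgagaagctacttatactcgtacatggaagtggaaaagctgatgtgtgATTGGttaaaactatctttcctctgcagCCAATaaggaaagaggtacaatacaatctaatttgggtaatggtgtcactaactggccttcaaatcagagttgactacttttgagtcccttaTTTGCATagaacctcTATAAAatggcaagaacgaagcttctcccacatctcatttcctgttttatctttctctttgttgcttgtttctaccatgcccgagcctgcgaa
Hist1h3e, chr13:23562336-23562635, - strand: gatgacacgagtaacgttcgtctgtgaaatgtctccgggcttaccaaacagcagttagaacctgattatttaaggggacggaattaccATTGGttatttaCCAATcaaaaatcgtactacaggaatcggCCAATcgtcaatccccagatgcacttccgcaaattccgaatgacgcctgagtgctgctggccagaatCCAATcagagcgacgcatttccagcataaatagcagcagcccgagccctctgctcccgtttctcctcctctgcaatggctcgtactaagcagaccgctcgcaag
Hist1h4i, chr13:22041313-22041612, - strand: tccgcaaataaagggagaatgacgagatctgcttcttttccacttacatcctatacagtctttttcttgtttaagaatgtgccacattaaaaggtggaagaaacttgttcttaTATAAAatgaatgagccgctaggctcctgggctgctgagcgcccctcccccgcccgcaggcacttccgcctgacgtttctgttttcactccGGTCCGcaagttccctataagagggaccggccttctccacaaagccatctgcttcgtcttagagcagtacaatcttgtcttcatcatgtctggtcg
Counted from the start, TATAAA began at position -33 in Hist1h1a, -41 in Hist1h2ab and -43 in Hist1h2bg, and at -137 in Hist1h4i, while the Hist1h3e window did not hold these letters. GGTCCG began at -46 in Hist1h4i, and Hist1h3e held CCAAT at 4 places. A run of letters is a match in sequence and was not tested as a binding site.

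Samples held 18809046 to 22274929 counts in total, and members took 0.0521% to 0.0829% of it. Xist rose from 1.41 to 1.53 counts per 1000000 of the sample total (CPM) at 0 h to 329 to 664 CPM in the DOX samples. Of 10 ESC markers 9 were at 1 CPM or more and their sum ran from 2744 to 3009 CPM. Sox2 was at 0 counts in all 10 samples; its span lies inside that of Sox2ot on the same strand, which was at 83.0 to 107 CPM. Markers of primitive endoderm summed to 2.75 to 4.31 CPM, of trophoblast to 15.0 to 22.6 CPM and of 2-cell-like cells to 1.68 to 2.59 CPM, with Foxa2, Hand1 and Dux at or near 0. The trophoblast sum was 21.2 to 22.6 CPM at 0 h and 15.0 to 15.5 CPM at 24 h, and its part in the results below was not tested. The study describes its replicates as biological, the labels number them without saying whether they were separate cultures, and p-values measure the spread between these samples.

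Among the types, H2B genes gave 27.2% of the members' CPM, H1 genes 23.0%, H4 genes 20.5%, H3 genes 19.8% and H2A genes 9.54%. Per kilobase of gene span, the median member was at 40.6 CPM for H1, 27.1 for H4, 21.1 for H3, 17.3 for H2B and 8.06 for H2A, so H2A genes were the lowest type on both scales. Levels were uneven within types, since the 10 members with the most CPM held 44.1% of the sum. None of the members overlapped another gene on the same strand. The counts come from unique alignments, and 43 of 56 members shared at least 1 run of 150 bases, the length of a read, with a transcript of another gene. The median share of such runs per transcript was 0% for H1, 7.60% for H4, 22.3% for H2B, 26.4% for H3 and 28.0% for H2A. It was highest for Hist1h3h at 90.5%, with Hist1h2ai at 86.1%. Read pairs within shared runs may be missing from these levels, which was not tested. Runs were compared between annotated transcripts, whose lengths can differ from the counted spans, so the shares depend on the annotation. Genomic positions were not compared, so transcripts that overlap on the genome also count as sharing runs. Reads there can still align to a single place. In GENCODE Hist1h1e overlaps the span of Hist1h2be, and Hist1h1e shared 347 of 1781 runs with other genes, Hist1h2be among them. The H2A median of 28.0% is the value of Hist3h2a. That gene, with 1997 runs for a counted span of 508 bp, shared 560 with Trim17, which is not a member.

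The core histone genes with the highest nascent levels per kilobase were an H2B and an H4 gene. Hist1h2bg (chr13:23571400-23571863) was at 73.7 ± 12.1 CPM per kilobase (SD over 10 samples) and Hist1h4i (chr13:22040960-22041362) at 73.0 ± 11.7, which differed by less than their spread. Hist1h3e (chr13:23561896-23562365) stood at 60.1 ± 8.41 and Hist1h1a, the gene of the linker histone H1.1 (chr13:23763668-23764412), at 51.6 ± 7.97. The highest H2A gene, Hist1h2ab (chr13:23751088-23751592), was at 19.4 ± 3.51 CPM per kilobase, below every sample of these 4 genes. The runners-up of each type were Hist2h2bb (61.6), Hist1h4d (56.6), Hist1h1d (48.8), Hist1h3g (36.4) and Hist2h2ac (15.4 CPM per kilobase). Hist1h2be and Hist1h2bc had the longest spans, 37455 and 8282 bp, and with introns counted they stood at 0.326 and 1.83 CPM per kilobase.

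H2A and H2B genes are often arranged head to head around a shared intergenic region, and 10 such pairs of members had starts separated by 177 to 305 bp. Per kilobase the H2B gene was higher in 7 pairs, in each of the 10 samples, by 1.9 to 12.6 times. In the 3 other pairs the H2B gene (Hist1h2bp, Hist1h2bc and Hist2h2be) has a span over 1000 bp and was lower per kilobase in all 10 samples. In CPM, without scaling by span, the H2B gene was the higher in 9 of 10 pairs, among them Hist1h2bp by 1.53 times and Hist1h2bc by 2.97 times, and Hist2h2be was the lower. The widest ratio was at Hist1h2ae and Hist1h2bg, whose 179 bp gap lies inside the Hist1h2bg promoter printed above. Hist1h2ae ran from 3.54 to 7.57 CPM per kilobase and Hist1h2bg from 58.8 to 92.9, without overlap. Of the transcript, 24.5% of 150-base runs of Hist1h2ae and 39.0% of those of Hist1h2bg were shared with other genes. In 4 of the 7 pairs the H2A gene shared more than its partner. Read pairs that lie wholly within shared runs may have no unique alignment. These were Hist1h2ai (86.1% against 29.7% in Hist1h2bl), Hist1h2ah (84.8% against 60.9% in Hist1h2bk), Hist1h2ag (65.5% against 22.3% in Hist1h2bj) and Hist1h2ad (59.3% against 10.6% in Hist1h2bf). The part of this in the ratios was not tested. Narrowest among the 7 was Hist1h2ad with Hist1h2bf, at a ratio of 1.9.

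**Figure D1:**
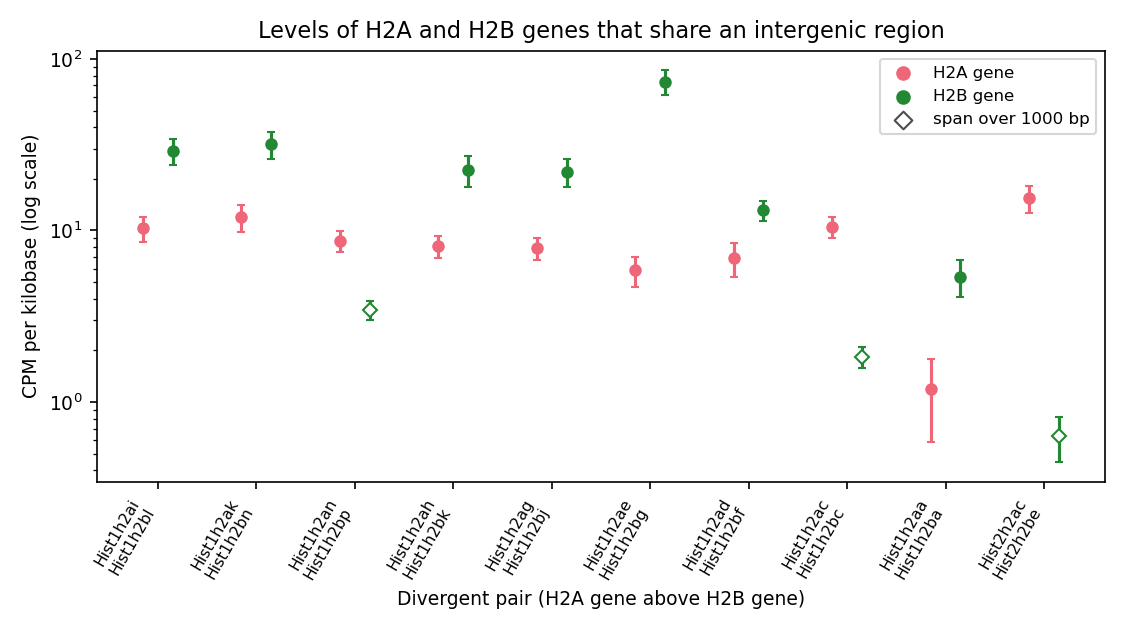
Mean CPM per kilobase on a log scale for the H2A gene (red) and the H2B gene (green) of 10 divergent pairs; bars are the SD over 10 samples and open diamonds mark spans over 1000 bp. Hist1h2bg stands 12.6 times above Hist1h2ae, and the 3 pairs with the H2B gene below are those with the long spans.

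Histone transcription over time was measured as the summed CPM of the 56 members. Replicates 1 and 2 gave 779 and 599 CPM before DOX, 693 and 709 CPM after 4 h and 633 and 572 CPM after 8 h. After 12 h they gave 778 and 663 CPM, and after 24 h 829 and 521 CPM. The highest and the lowest of all 10 samples were thus the replicates of a single time, 24 h, and the range of every other time lay within them. Means were 689 ± 127, 701 ± 11.7, 603 ± 43.2, 720.5 ± 81.5 and 675 ± 217 CPM at 0, 4, 8, 12 and 24 h (SD, n = 2). The highest time mean was 1.19 times the lowest, less than the 1.59-fold between the replicates at 24 h. The smallest exact p that 2 against 2 samples allow is 2 in 6, above 0.05, and no test is given for the sum.

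**Figure D2:**
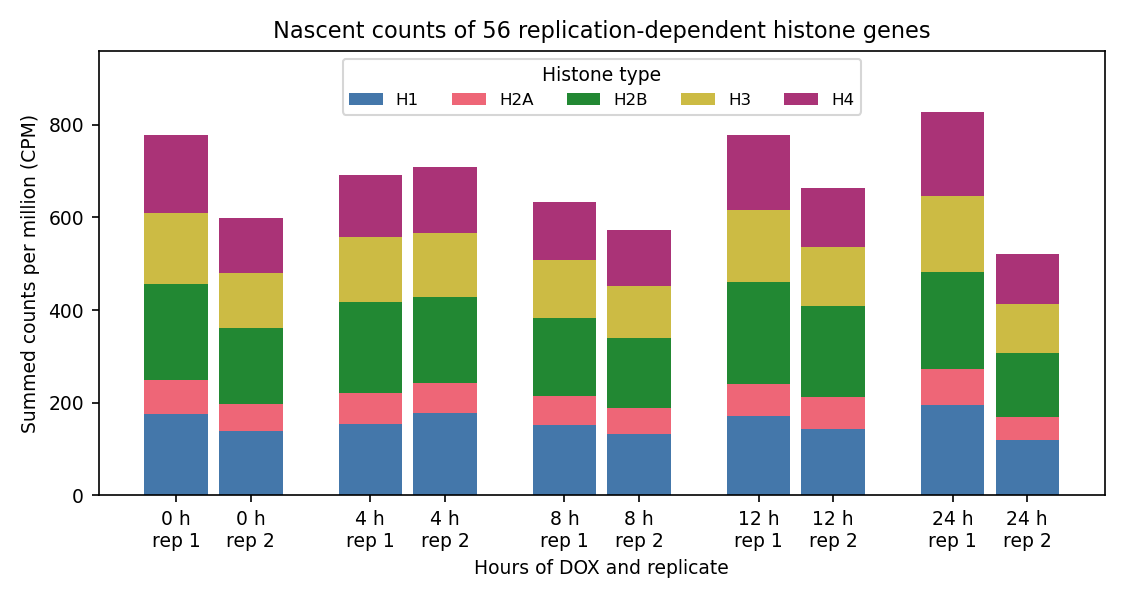
Summed CPM of the 56 members in each sample, stacked by histone type, with hours of DOX and replicate on the horizontal axis. The tallest and the shortest bars, 829 and 521 CPM, are the replicates of 24 h, and all 5 types contribute to the gap.

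Clusters and types also differed between the replicates of 24 h. Hist1 members ran from 476 to 754 CPM and Hist2 members from 36.2 to 60.6 CPM, in both cases with the lowest and the highest sample at 24 h. Hist4h4 lay between 7.18 and 11.8 CPM and Hist3h2a between 1.17 and 2.92 CPM, each with its highest sample at 0 h and its lowest at 24 h. The highest sample of a type was 1.54 times the lowest for H3, 1.57 for H2B, 1.61 for H2A, 1.62 for H1 and 1.70 for H4, and the lowest was replicate 2 of 24 h for each of them. The highest was replicate 1 of 24 h for H1, H2A, H3 and H4 and replicate 1 of 12 h for H2B.

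No member passed the test of total counts at any time in the main fit, which held no replicate block. In edgeR's quasi-likelihood test 0 of 56 members passed an adjusted p of 0.05 at 4, 8, 12 or 24 h against 0 h, where 0.0138%, 0.193%, 0.95% and 1.85% of the 14525 genes tested did. Across the 5 times together 0 of 56 varied, against 1.25% of all genes. At an unadjusted p under 0.05 there were 0, 0, 2 and 2 members at the 4 times and 2 across all times, against 2.09%, 4.06%, 11.5%, 10.3% and 8.45% of all genes, and DESeq2 called 0 in each comparison. The median log2 change of the members was 0.09, -0.14, 0.11 and -0.00 at 4, 8, 12 and 24 h, where the median of all genes tested lay between -0.00 and 0.01. With the replicate number as a block, 1 member was called at 12 h, 1 at 24 h and 3 across all times, where 4.94%, 5.32% and 6.12% of all genes were.

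Directions differed between times. At 8 h 47 of 56 members were below 0 h and at 12 h 44 of 56 were above it, among them 14 of 15 H2B genes with a median of 0.23. At 24 h 28 were above and 28 below. Single samples turned the median at each time. Without replicate 1 of 0 h it was 0.02 at 8 h, and at 12 h it was -0.05 without replicate 2 of 0 h and -0.02 without replicate 1 of 12 h. As nearly every member was higher in the same replicate of 24 h, as described below, these counts are not independent, and no test is given for them.

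**Figure D3:**
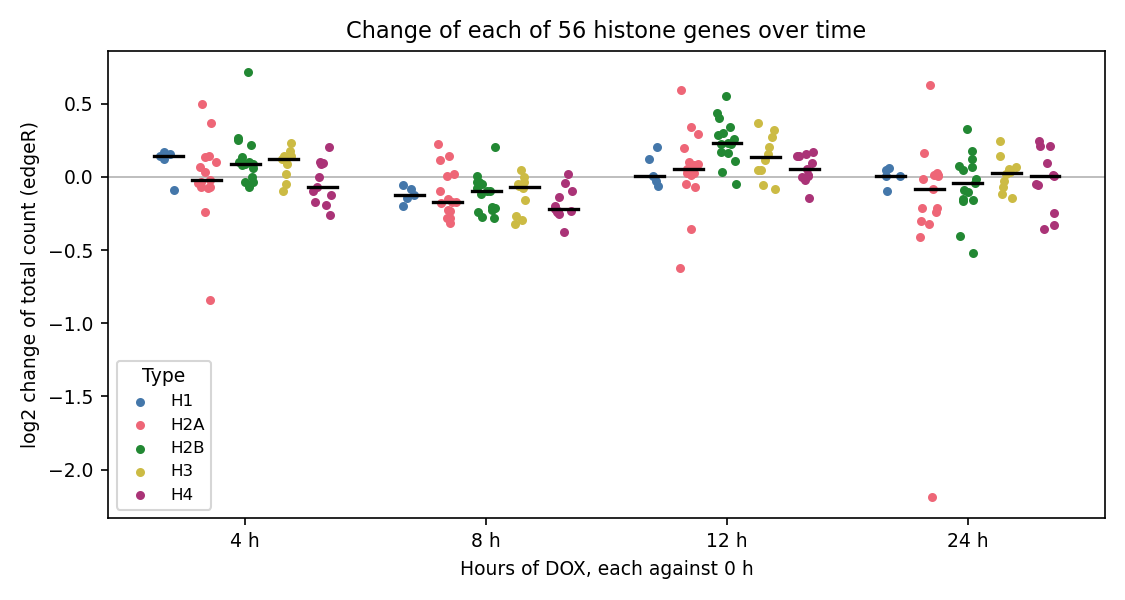
Each point is the edgeR log2 change of 1 member at 4, 8, 12 or 24 h of DOX against 0 h, coloured by type, with black bars at the type medians. Most points lie near 0, the H2B genes at 12 h have a median of 0.23, and Hist1h2aa stands apart at -2.18 at 24 h.

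The lowest change at 24 h was that of Hist1h2aa, the testis-specific H2A gene, which also had the fewest counts of the members. It gave 12 and 17 counts before DOX, 15 and 18 after 4 h, 15 and 9 after 8 h, 8 and 10 after 12 h, and 2 and 4 after 24 h. Both samples of 24 h lay below all 8 others. The log2 change was -2.18 ± 0.53 (SE; adjusted p = 0.0502, edgeR), which misses 0.05. The adjusted p was under 0.05 with the replicate block (0.0128), with limma voom (0.0440), without TMM scaling (0.0489) and without the filter on low counts (0.0391). DESeq2 gave a log2 change of -2.24 and no adjusted p. Its mean of 11 counts passed the limit of 10 through the earlier times, where it was higher, so the low counts at 24 h are a description. Its divergent partner Hist1h2ba, the testis-specific H2B gene, had the next lowest change, -0.52 ± 0.32 (adjusted p = 0.666), with 2.97 and 2.19 CPM at 0 h and 2.44 and 1.17 at 24 h, which overlap.

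Hist3h2a, an H2A gene outside the main clusters, followed with -0.41 ± 0.33 (adjusted p = 0.763). The highest changes at 24 h were 0.63 ± 0.24 for the H2A gene Hist1h2ad (adjusted p = 0.334), 0.33 ± 0.37 for the H2B gene Hist2h2be (0.859) and 0.24 ± 0.19 for the H3 gene Hist1h3b (0.749), all by edgeR. Hist1h2ad stood at 3.11 and 2.55 CPM at 0 h and at 5.49 and 3.23 at 24 h, so both 24 h samples were the higher ones. Hist1h3b stood at 10.7 and 8.57 CPM at 0 h and 14 and 8.66 at 24 h, where the ranges overlap.

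With the replicate block the member called at 12 h was the H2B gene Hist1h2bl, which stood at 12.8 and 9.85 CPM at 0 h and 15.6 and 13.8 at 12 h, without overlap. Its log2 change was 0.44 ± 0.13 (SE; adjusted p = 0.0363, edgeR), against an adjusted p of 0.341 without the block. Across all times the block called Hist1h2bg, Hist1h2aa and another H2B gene, Hist1h2bn (adjusted p = 0.00468, 0.0164 and 0.0193, edgeR). Hist1h2bg gave 42.2 and 29.5 CPM before DOX, 37.9 and 31.0 after 4 h, 27.3 and 30.4 after 8 h, 43.1 and 37.3 after 12 h, and 33.7 and 29.7 after 24 h. Both samples of 12 h lay above both of 8 h and both of 24 h, while the replicates of 0 h spanned nearly that range. Without the block its adjusted p was 0.512.

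Among the other highest members of each type, the replicates also stood apart. Hist1h1a stood at 42.9 and 33.0 CPM at 0 h and 46.5 and 29.1 at 24 h, with a log2 change of 0.01 ± 0.18. Hist1h2ab stood at 11.7 and 8.62 CPM at 0 h and 13 and 7.36 at 24 h (0.01 ± 0.21). Hist1h4i stood at 36.8 and 24.7 CPM at 0 h and 35.1 and 23.6 at 24 h (-0.06 ± 0.17). Hist1h3e stood at 35.7 and 25.7 CPM at 0 h and 30.2 and 24.7 at 24 h (-0.14 ± 0.14). In each of these the replicates of either time differed by more than the means of 0 h and 24 h did, and replicate 1 was the higher. The highest and the lowest of the 10 samples were both at 24 h for Hist1h1a and Hist1h2ab, while Hist1h4i and Hist1h3e were highest at 0 h.

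The replicates of 24 h differed in nearly every member. Of 56 members 55 were higher in replicate 1, the exception being Hist1h2aa, and the median log2 ratio of replicate 1 over replicate 2 was 0.66 (quartiles 0.58 and 0.81). The ratio was over 0.5 in 46 members (82.1%) and in 5.89% of all genes tested, whose median was 0.00. It was alike in the clusters, with a median of 0.66 in Hist1 and 0.70 in Hist2 and values of 0.94 for Hist3h2a and 0.63 for Hist4h4. By type it ran from 0.62 for H2B to 0.82 for H4. Hist1h2bg at 0.16 and Hist1h3e at 0.27 were among the lowest, while Hist1h2ae at 1.07, the divergent partner of Hist1h2bg, and the H4 gene Hist1h4h at 1.05 were the highest.

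At the other times the median ratio of the members was 0.29, -0.08, 0.18 and 0.22 at 0, 4, 8 and 12 h. Replicate 1 was thus the higher at 4 of 5 times, and 8 members were higher in it at all 5, a count not made for all genes. Other autosomal genes with a span under 1000 bp, 130 in all, had a median of 0.20 at 0 h and 0.16 at 24 h. At 24 h 27 of these 130 (20.8%) had a ratio over 0.5. At 0 h 33 of the 130 (25.4%) did, beside 11 of 56 members (19.6%) and 6.87% of all genes tested. Median biological variation in the edgeR fit was 12.9% for the members and 7.92% for all genes. The part that cell cycle stage, cell number or library preparation had in the 24 h difference was not tested, and the pattern was described after it was seen in these values.

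**Figure D4:**
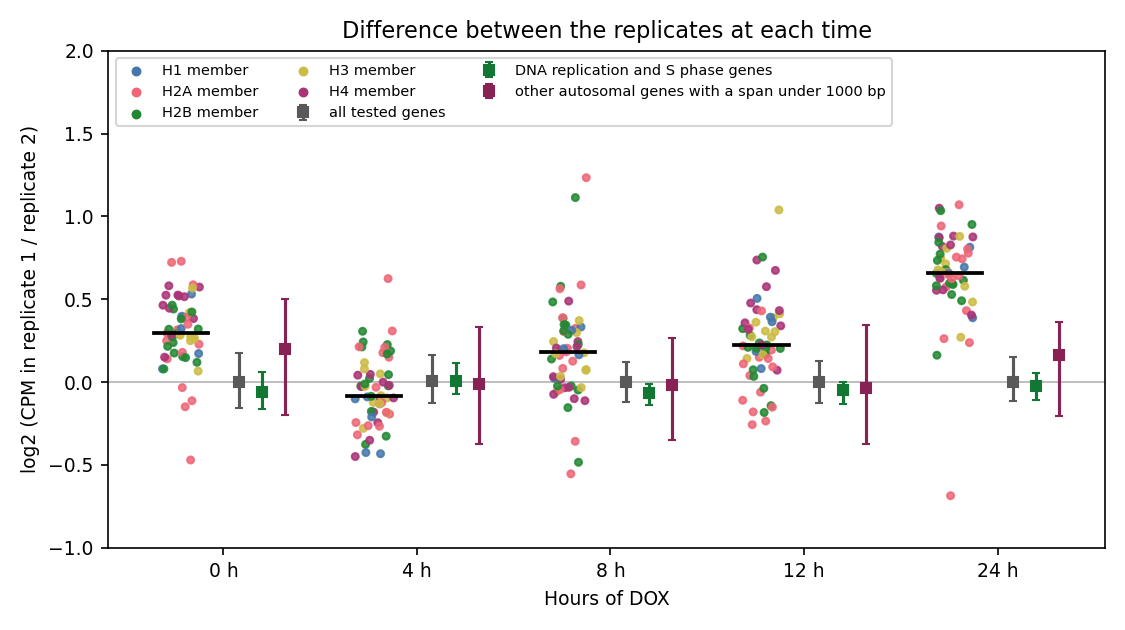
Points are the log2 ratio of CPM in replicate 1 over replicate 2 for each member at each time, coloured by type, with black bars at the medians; squares with bars are medians and quartiles of all tested genes, DNA replication and S phase genes and other short autosomal genes. At 24 h the members' median is 0.66 and 1 member, Hist1h2aa, is below 0.

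Genes of DNA replication and of mitosis did not show that difference. In 50 DNA replication and S phase genes the median log2 ratio of the 24 h replicates was -0.02, and 0 of 50 were over 0.5. In 30 G2 and M phase genes it was 0.03, and in 29 factors of histone gene transcription and 3′ end formation it was -0.00. In the 11 tested genes of replication-independent histones, such as the H3.3 gene H3f3b and the H2A.Z gene H2afz, it was 0.09, and 2 of 11 (18.2%) were over 0.5.

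None of these lists had a gene past the adjusted p in total counts at 4, 8, 12 or 24 h (edgeR; 0 of 50, 0 of 30, 0 of 29 and 0 of 11). At an unadjusted p under 0.05 there were 0, 1, 1 and 0 of the S phase genes, 0, 0, 1 and 0 of the G2 and M phase genes, 0, 1, 3 and 2 of the transcription and 3′ end factors, and 0, 0, 1 and 1 of the replication-independent histones, beside the 2.09%, 4.06%, 11.5% and 10.3% of all genes. Their median log2 changes at 24 h were -0.01, 0.03, -0.01 and 0.01. Pcna, the sliding clamp of DNA polymerase, stood at 77.9 ± 4.44 CPM at 0 h and 80.2 ± 6.74 at 24 h (SD, n = 2), and Ccnb1, the mitotic cyclin, at 147 ± 4.22 and 148 ± 10.5. Npat, the activator of histone genes downstream of cyclin E, stood at 178 ± 29.3 and 188 ± 6.55, and Ccne1 (cyclin E1) at 64.9 ± 6.27 and 66.1 ± 3.84.

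Slbp stood at 76.1 ± 5.00 CPM at 0 h and 74.9 ± 3.78 at 24 h, Casp8ap2 at 144 ± 8.87 and 135 ± 1.29, and the U7 snRNP subunit Lsm11 at 23.9 ± 1.35 and 20.7 ± 1.93. H3f3b stood at 47.6 ± 2.93 and 49.0 ± 8.17 CPM, and H2afz at 66.4 ± 10.2 and 58.1 ± 9.65. In all of these the adjusted p at 24 h was over 0.05, the lowest being 0.583 for Lsm11 (edgeR). Of the marker lists, the ESC, primitive endoderm and 2-cell-like genes had 0 called at 24 h, and among the trophoblast genes Tfap2c fell, with a log2 change of -0.72 ± 0.13 (adjusted p = 0.00835, edgeR).

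Allelic reads were missing from a large part of the family. In the deposited tables a read counts as B6 or Cast where it covers a base that differs between the strains. Of 56 members 21 had 2 or fewer allelic reads over all 10 samples, 18 of them 0, and these 21 held 42.7% of the members' counts. Among members with 1000 or more counts 17 of 43 (39.5%) had 2 or fewer, against 60 of 9824 other autosomal genes (0.611%) and 2 of 20 short ones.

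The gap was mostly 1 block. A run of 14 neighbouring members from Hist1h4h to Hist1h4d, 50926 bp at chr13:23531044-23581969, gave 4 allelic reads of 44814 counts. It holds Hist1h1d with 0 of 7793, Hist1h2bg with 0 of 7056, Hist1h3e with 1 of 5831 and Hist1h4d with 0 of 4289 counts. A count of 0 allows a share of up to 0.0385% for Hist1h1d and 0.0425% for Hist1h2bg (3 counts, counting error only). Hist1h1d and Hist1h4d shared no 150-base run with another transcript. Outside it were Hist1h4k, Hist1h4c, Hist2h2ab, Hist4h4 and a stretch of 3 in the Hist2 cluster, Hist2h4, Hist2h3b and Hist2h2bb, with 0 of 8386 counts. The list of strain differences was not used here, and the cause was not tested.

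Another 8 members had more allelic reads but fewer than 10 in some sample, which left 27 to test. The B6 share, B6 reads over B6 plus Cast reads, was first summed over all members with allelic reads, whether tested or not. It was 0.522 ± 0.00789 (SD, n = 10), and that of all other autosomal genes 0.521 ± 0.000841. By sample it ran from 0.512 (95% Wilson interval 0.497 to 0.528) in replicate 2 of 0 h to 0.537 (0.521 to 0.554) in replicate 2 of 8 h. In edgeR, 18 of the 27 (66.7%) had a share away from 0.5, 12 toward B6 and 6 toward Cast. Of 11906 genes, X-linked ones included, 73.6% did, 48.6% toward B6 and 25% toward Cast. Of the 18, 12 lay on the same side in all 10 samples, and the share of all genes that did so was not computed. The log2 ratio of B6 over Cast was over 1 in size in 5 of 27 (18.5%) and in 13.5% of other autosomal genes.

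Most skewed toward B6 was Hist1h4i, also the H4 gene with the highest level. Its share ran from 0.733 to 0.92 over the 10 samples, with a mean of 0.815 ± 0.0623 and a log2 ratio of 2.15 ± 0.16 (SE; adjusted p = 2.36e-10, edgeR, 511 allelic reads). These reads were 8.44% of its 6056 counts, the smallest part of any member tested. The H3 gene Hist1h3c ran from 0.669 to 0.803 (log2 ratio 1.40 ± 0.09, adjusted p = 1.52e-11) and the H4 gene Hist1h4j from 0.649 to 0.769 (1.23 ± 0.09, adjusted p = 8.32e-11). All 10 samples of the 3 genes were above 0.5.

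Most skewed toward Cast was the H2A gene Hist1h2ac, whose share ran from 0.146 to 0.400 (mean 0.261 ± 0.0822, log2 ratio -1.49 ± 0.17, adjusted p = 1.32e-07, edgeR, 408 allelic reads). The H3 gene Hist1h3a ran from 0.237 to 0.410 (-1.01 ± 0.10, adjusted p = 1.12e-08) and the H2B gene Hist1h2bj from 0.328 to 0.427 (-0.65 ± 0.07, adjusted p = 4.47e-08). All 10 samples of the 3 genes were below 0.5. Hist1h4i and Hist1h2bj leaned to opposite alleles although a single member, Hist1h2ag, lies between them. Reference bias in alignment or a share set by few strain differences was not tested for single genes.

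**Figure D5:**
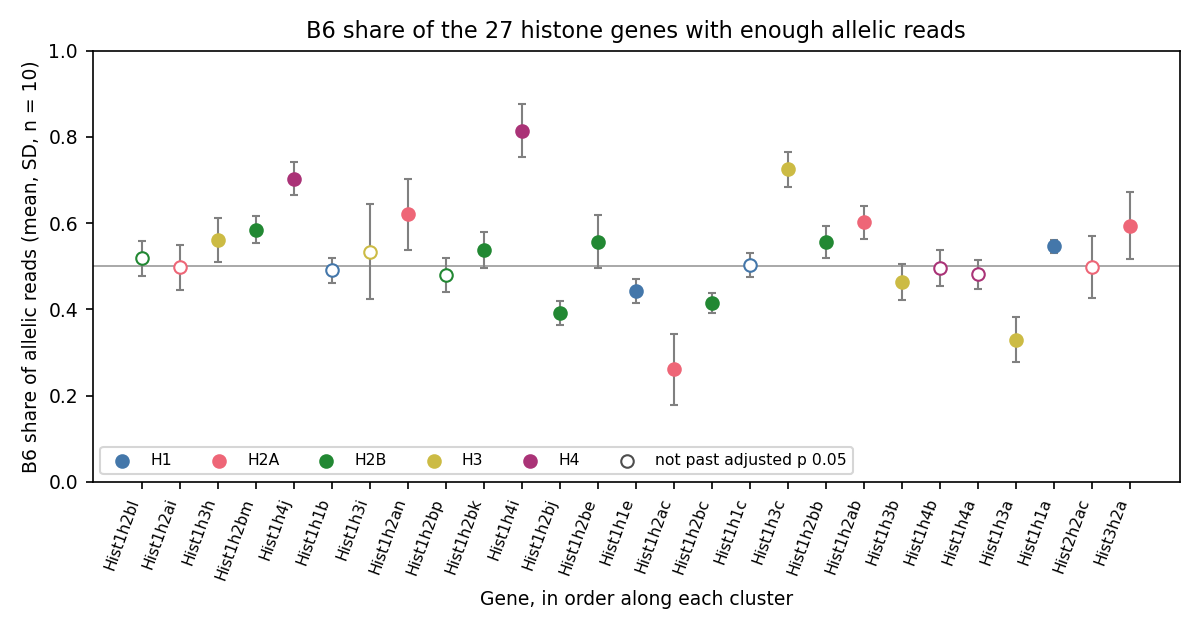
Mean B6 share with SD over 10 samples for the 27 members tested, in order along Hist1, then Hist2h2ac and Hist3h2a; filled points passed an adjusted p of 0.05 against 0.5. Hist1h4i is highest at 0.815 and Hist1h2ac lowest at 0.261.

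None of the 27 passed the test for a change in B6 share over time. Against 0 h, 0 of 27 were called at 4, 8, 12 and 24 h (edgeR), where 0.361%, 1.66%, 2.15% and 2.64% of all genes were. All genes here include X-linked ones, while the members are autosomal. At 24 h 286 of the 314 genes called fell in B6 share, and the rate among autosomal genes alone was not computed. At an unadjusted p under 0.05 there were 2, 2, 4 and 1 members, against 5%, 5.9%, 7.38% and 8.21% of all genes, and DESeq2 called 0 at each time. The share summed over all members with allelic reads was 0.517 ± 0.00691, 0.526 ± 0.00277, 0.531 ± 0.00949, 0.516 ± 0.00371 and 0.521 ± 0.00929 at 0, 4, 8, 12 and 24 h (SD, n = 2). Both samples of 4 h (0.528 and 0.524) and of 8 h (0.524 and 0.537) lay above both of 0 h (0.522 and 0.512), while 12 h and 24 h overlapped with 0 h. At 24 h the replicates, which differed 1.59-fold in level, had shares of 0.528 and 0.514 with overlapping Wilson intervals (0.514 to 0.541 and 0.498 to 0.531). Of the 29 transcription and 3′ end factors 1 was called, the X-linked cleavage stimulation factor gene Cstf2, whose log2 ratio of B6 over Cast fell by 1.37 at 12 h and by 1.18 at 24 h (adjusted p = 0.0125 and 0.0159, edgeR).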

How the data were processed

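Per the study's methods, the authors trimmed reads with Cutadapt 1.16, aligned them with STAR 2.3.0 to a strain-masked mm10 genome (unique alignments, at most 2% mismatches), split alleles with SNPSplit 0.3.2 and counted pairs by strand with featureCounts 1.5.1 over whole gene spans. The submitters' processing notes name TopHat2 2.1.0 and bedtools instead of STAR, and which was used was not settled. The deposited values are raw counts (all, B6 and Cast) and a fraction, B6 over allelic counts, recomputed here from the counts. The study added labelled and unlabelled spike-in RNAs to the lysates, but scaling by them and duplicate removal are not stated for these counts. Shared global changes are not visible in CPM, which are counts per 1000000 of the sample total.

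Total counts were tested with edgeR 4.0.16 (R 4.3.3; quasi-likelihood, filterByExpr, TMM, time as factor, all 10 samples, Benjamini-Hochberg over 14525 genes). B6 shares were tested in edgeR on 20 columns with an intercept per sample, allele and allele by time, for 11906 genes with 10 or more allelic reads in every sample. Scripts were tested on simulated counts. In total counts of all genes, deviations of same-numbered samples from the time means correlated between times. The r was 0.136 to 0.264 in all 10 comparisons. Over the members alone r ran from -0.330 to 0.453 (mean 0.0599, over 0.1 in 4 of 10). The mean over genes at each time is taken out in r, so it cannot show a shift common to all members. Replicate 1 was higher in 52, 19, 41, 47 and 55 of 56 members at 0, 4, 8, 12 and 24 h. For the ratio of B6 to Cast 0 of 10 were over 0.1. By total counts of all genes, same-numbered samples thus looked paired. The main tests held no replicate block, since the study states no pairing, and the fit with the block is an alternative. Alternatives were DESeq2 1.42.0, limma voom 3.58.1, no TMM, no filter, stricter allelic minimum, the replicate block and leaving out each sample.

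The members and lists (S phase, G2 and M phase, histone transcription and 3′ end factors, replication-independent histones, cell type markers) were chosen with earlier results of these data known. Named members were the 2 highest per type per kilobase, those past an adjusted p of 0.05 in a comparison over time, the 3 highest and 3 lowest changes at 24 h and B6 shares, the 2 nearest the count limit on either side, the 2 longest and those of Hist3 and Hist4. Of the lists, genes past the adjusted p and 9 set genes (Npat, Casp8ap2, Slbp, Lsm11, H3f3b, H2afz, Pcna, Ccne1 and Ccnb1) were named. Hist1h2bl and Hist1h2bn, members named for their shared runs, their promoter, their place among the 24 h replicate ratios or in the divergent pairs, and members without allelic reads were named after their values were seen. Promoters come from RefSeq (GRCm38.p6) and transcripts from GENCODE M21. Intervals cover counting error only, as no molecular identifiers mark which read pairs stem from 1 molecule.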

Additional observations from a re-analysis of the deposited data

How the results depend on the processing

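With 2 samples per time, 56 short genes and between-replicate variation above that of other genes, a missed threshold does not show that levels were equal. With the replicate block 1 member was called at 12 h, 1 at 24 h and 3 across all times, and no count of B6 share calls changed. At 24 h limma voom, library size without TMM and no filter on low counts each called 1, Hist1h2aa, which rests on 2 and 4 counts at 24 h. The share of all genes called in these fits is not given here, and in the main fit it was 1.85% at 24 h. Leaving out each sample in turn gave 0 calls in total counts and in changes of B6 share at all times, 17 to 18 members with a share away from 0.5, and a log2 ratio of the summed CPM to 0 h of -0.15 to 0.23 after 4 h (0.23 without replicate 1 of 0 h), -0.37 to 0.01 after 8 h, -0.11 to 0.27 after 12 h and -0.40 to 0.27 after 24 h. The median log2 change of the members ran from -0.10 to 0.21, -0.29 to 0.02, -0.05 to 0.30 and -0.36 to 0.29 at 4, 8, 12 and 24 h. The direction of the sum and of the median was therefore not fixed at any time. The log2 change at 24 h ran from -0.95 to 0.0053 for Hist3h2a, which turned without replicate 1 of 0 h, and from -0.15 to 0.70 for Hist2h2be and -0.13 to 0.55 for Hist1h3b, which turned without replicate 1 of 24 h. The alternative limited to members that overlap no gene on the same strand is the main value, as none did. With the stricter allelic minimum of 30 reads in every sample, 16 members had a share away from 0.5. Hist1h2ac and Hist3h2a, with as few as 26 and 12 allelic reads in a sample, were not tested there. Beside the changes named above and the members called with the block, the other call counts and named members kept their side of the threshold under the alternatives run.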
